A study of Mus musculus with 12 samples.

Results

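Myc, its dimer partner Max, the transferrin receptor gene Tfrc and 7 genes of plasma membrane amino acid transport (Slc7a5, Slc3a2, Slc1a5, Slc7a1, Slc7a6, Slc38a1 and Slc38a2) were followed in 12 arrays of mouse splenic regulatory T cells (Treg). They were chosen by gene symbol, with earlier results of these data known. All 10 genes were measured, by 11 of the 23521 probe sets that carry exactly 1 gene symbol (22180 genes). Slc1a5 had 2 probe sets, and each of the other 9 genes had 1.

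The cells came from DEREG mice, a transgenic line in which Foxp3 regulatory sequence drives a receptor for diphtheria toxin (DTx) joined to a fluorescent reporter, and in which the toxin therefore removes Foxp3-expressing cells. Mice of every group had allergic airways disease from ovalbumin sensitisation and challenge. The iTreg group (4 arrays) came from mice given DTx at 40 ng/g and then intravenous immunoglobulin (IVIg, pooled human IgG) at 2 g/kg. The e_iTreg group (4 arrays) was given IVIg without DTx, and its label describes a mixture of endogenous and IVIg-induced Treg. The eTreg group (4 arrays) was given a control protein without DTx, human serum albumin (HSA) at 2 g/kg. This grouping follows the series design. The growth protocol is worded alike for all samples and mentions DTx before either protein. If mice of the HSA group had DTx too, the comparisons with eTreg would mean something else. A group with both DTx and HSA is not analysed here, so between iTreg and eTreg the effects of DTx and IVIg cannot be told apart. The labels give neither age nor sex. Xist, transcribed from the inactive X chromosome of female cells, was at 5.82 in e_iTreg replicate 4 and between 10.26 and 11.37 in the other 11 arrays.

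Myc is a transcription factor that binds DNA as a dimer with Max and raises genes of ribosome production, nucleotide synthesis and nutrient uptake when T cells are activated. Proteins of the Mxd family, Mnt and Mga also pair with Max and compete with Myc for it. Slc7a5 and Slc3a2 are the light and heavy chains of the CD98 transporter, which brings leucine and other large neutral amino acids into the cell, where they keep the kinase complex mTORC1 active. Slc1a5 carries glutamine, Slc7a1 carries arginine and lysine, and Tfrc imports iron bound to transferrin.

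The preferred DNA site of the Myc and Max dimer is the E-box CACGTG. It was searched on both strands of the RefSeq promoter windows (GRCm38.p6, 250 bases before to 50 bases after a gene start), together with the element TGATGNAA of ATF4, the transcription factor of the amino acid response. The motifs can share their TG letters, as CACGTG ends with the letters that TGATGNAA starts with. Of the 9 windows that matched members (6 genes), 1 held CACGTG, that of Max, and 0 held TGATGNAA. Over all 32851 windows the shares were 7.15% and 3.97%. Myc, Slc7a5, Slc1a5 and Slc38a1 had no window, so neither motif was searched for in them. The 3 windows printed here, 5′ to 3′, are those of Max (chr12:76962199-76962498, minus strand), Slc38a2 (chr15:96699679-96699978, minus strand) and Slc3a2 (chr19:8713848-8714147, minus strand). Max is shown for its E-box, in capitals at bases 248 to 253 of the window, and the other windows are shown because the values of these genes are set out array by array in the text. A match is a description of letters and not of binding.
Max: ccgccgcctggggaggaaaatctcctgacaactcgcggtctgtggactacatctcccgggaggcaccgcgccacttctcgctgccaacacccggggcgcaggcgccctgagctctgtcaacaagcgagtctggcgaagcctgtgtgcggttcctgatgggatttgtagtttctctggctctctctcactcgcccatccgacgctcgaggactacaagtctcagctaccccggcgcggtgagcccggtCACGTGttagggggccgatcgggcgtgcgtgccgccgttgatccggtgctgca
Slc38a2: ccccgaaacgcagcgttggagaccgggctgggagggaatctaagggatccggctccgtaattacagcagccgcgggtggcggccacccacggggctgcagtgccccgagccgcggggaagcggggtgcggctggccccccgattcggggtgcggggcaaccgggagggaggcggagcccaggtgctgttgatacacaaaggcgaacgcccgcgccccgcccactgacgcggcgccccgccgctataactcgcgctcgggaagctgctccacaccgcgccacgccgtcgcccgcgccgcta
Slc3a2: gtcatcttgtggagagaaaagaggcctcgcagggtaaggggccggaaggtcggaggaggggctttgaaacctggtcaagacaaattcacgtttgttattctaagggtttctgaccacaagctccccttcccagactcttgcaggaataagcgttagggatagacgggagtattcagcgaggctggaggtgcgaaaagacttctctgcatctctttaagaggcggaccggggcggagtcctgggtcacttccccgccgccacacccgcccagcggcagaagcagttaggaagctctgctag

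The values are log2 expression levels from RMA, and levels are compared between groups for 1 probe set at a time. The arrays had medians between 6.28 and 6.50. Foxp3, the factor that defines Treg, was at 12.17 ± 0.25 in iTreg, 12.30 ± 0.21 in e_iTreg and 12.46 ± 0.09 in eTreg (mean ± SD, n = 4 each). The 12 measured genes of T cell and Treg identity averaged 11.25 to 11.33 in iTreg arrays, 11.21 to 11.25 in e_iTreg arrays and 11.24 to 11.29 in eTreg arrays. Marker lists of other cells were averaged in the same way. The 10 plasma cell markers averaged 7.53 to 9.37 in iTreg (the highest in replicate 4), 7.24 to 7.52 in e_iTreg and 7.17 to 7.46 in eTreg. The 13 monocyte, macrophage and dendritic cell markers averaged 6.79 to 7.83 in iTreg, 6.43 to 7.06 in e_iTreg and 6.52 to 6.95 in eTreg. The 14 B cell markers spread from 7.52 to 7.97 in iTreg, 6.73 to 8.31 in e_iTreg and 6.72 to 8.38 in eTreg. Neutrophil markers (8 genes) ranged from 6.45 to 7.56 in iTreg, 5.84 to 6.80 in e_iTreg and 5.85 to 6.70 in eTreg. Erythroid markers (8 measured of 16) stayed between 6.07 and 6.31 in iTreg, 6.20 and 6.40 in e_iTreg and 6.17 and 6.31 in eTreg. RMA values have no true zero, so no marker can be said to be absent, and a level near the array medians does not show presence.

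Myc transcript (probe set 17311846) was lower in iTreg. Its log2 level was 9.63, 9.90, 9.94 and 9.71 in iTreg replicates 1 to 4, 10.31, 10.005, 10.27 and 10.05 in e_iTreg and 10.31, 10.43, 9.97 and 10.08 in eTreg. All 4 iTreg arrays lay below all 8 arrays of the other groups, though the gap between the highest iTreg array and the lowest eTreg array was small. Group means were 9.80 ± 0.15 in iTreg, 10.16 ± 0.15 in e_iTreg and 10.20 ± 0.21 in eTreg (SD, n = 4 each). Fewer cells with the transcript and less transcript per cell cannot be told apart in sorted bulk samples.

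**Figure D1:**
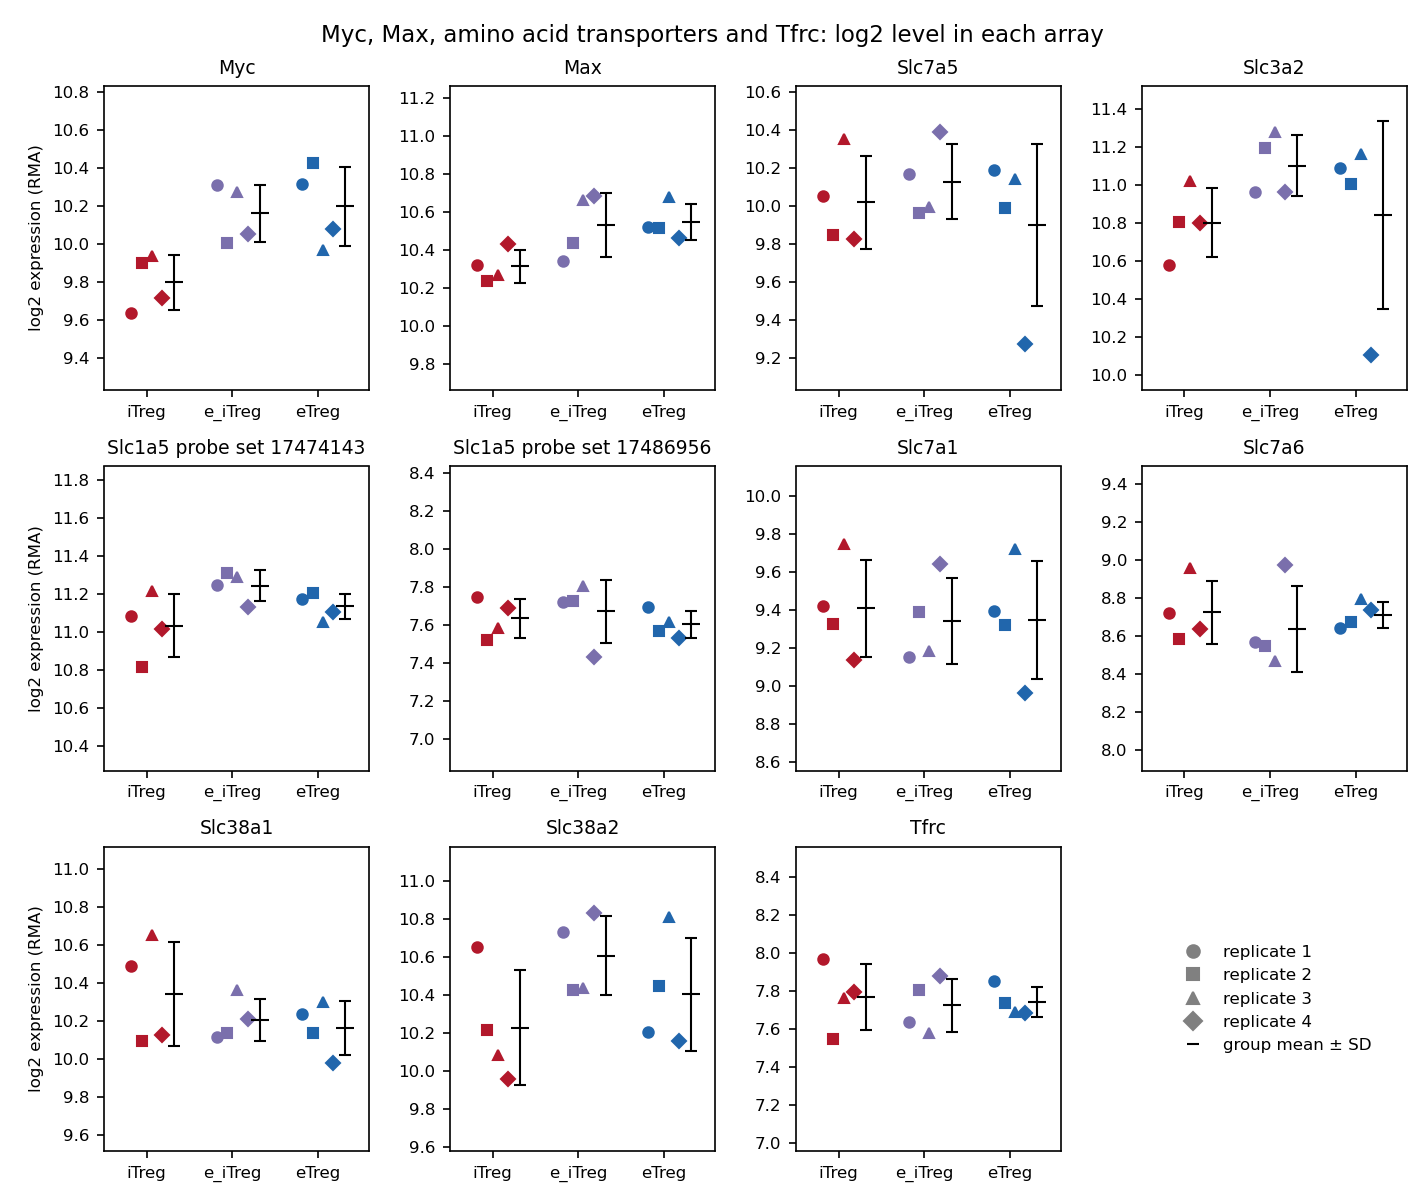
Log2 expression (RMA) of the 11 probe sets of Myc, Max, the amino acid transporter genes and Tfrc in each array, with a panel per probe set, 3 groups on the x axis, a symbol shape per replicate number and the group mean ± SD to the right. Myc in iTreg (9.63 to 9.94) lies below the other 8 arrays, and eTreg replicate 4 is the lowest array for Slc3a2 (10.11) and Slc7a5 (9.27).

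Against eTreg, Myc fell by 0.40 ± 0.12 on the log2 scale (SE, 95% interval -0.66 to -0.14), a 1.32-fold decrease, with limma's Benjamini-Hochberg adjusted p = 0.0486. It was the 1 member probe set of 11 past the adjusted threshold of 0.05, where 9.99% of all 23521 rows tested passed. In the lower direction alone 4.63% of rows passed. A single call among 11 is close to that background. Against e_iTreg the Myc difference was -0.36 ± 0.12 (95% interval -0.62 to -0.11) with adjusted p = 0.0674. No member passed in iTreg minus e_iTreg, where 11.2% of rows did. Between e_iTreg and eTreg, Myc differed by -0.04 ± 0.12 (adjusted p = 0.946). In order of level, eTreg and e_iTreg were neighbours that did not differ beyond their spread, and iTreg came below both.

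The Myc call was close to the threshold. The difference was negative in all 31 alternative settings, between -0.57 and -0.32. The call held in 9 of them and was lost in 22. Part of both tallies was fixed in advance. Row filters, trend and robust estimates of spread, the replicate block and the compared groups alone cannot change the difference. Nor can another threshold or leaving out an e_iTreg array, so the sign in these settings is no added support. The looser threshold of 0.1 had to keep the call. A required fold of 1.5 had to end it, as the decrease was 1.32-fold. Leaving out any 1 array other than eTreg replicate 3 ended the call. The adjusted p was then highest, at 0.160, without eTreg replicate 2, where the difference was -0.32. With the cell cycle list mean as a covariate the difference was -0.51 with adjusted p = 0.535, and 12 of all rows passed. The iTreg arrays did not overlap with the others in that mean. This covariate therefore shares much of the group difference and can remove calls by itself. With the plasma cell marker mean the Myc difference was -0.37 with adjusted p = 0.227, and 913 rows passed. In the fit as reported 2349 rows passed, so the loss of calls with these covariates was not particular to Myc.

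**Figure D2:**
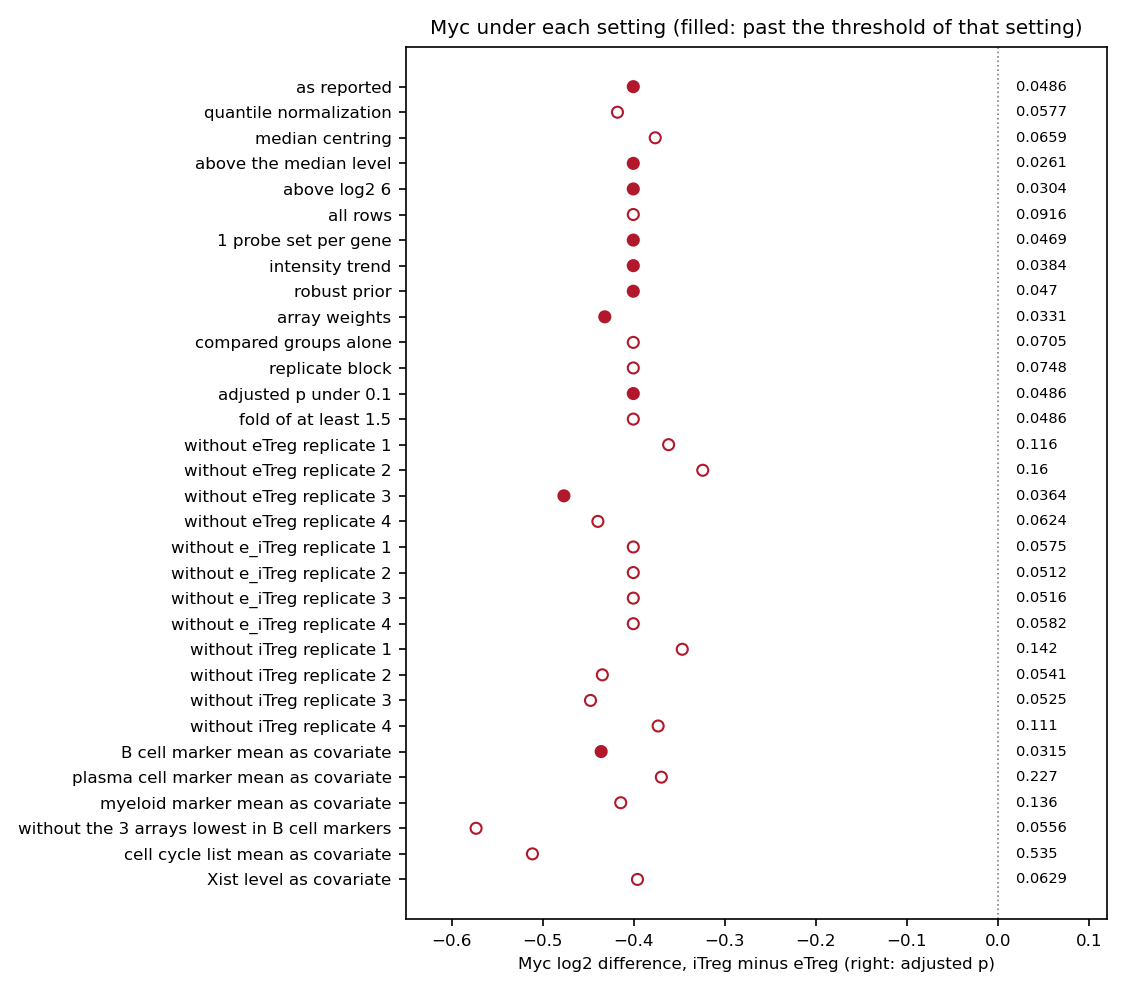
Myc log2 difference, iTreg minus eTreg (x axis), as reported and under 31 other settings (one per line), with the adjusted p of each at the right and filled points where the setting's own threshold was passed. Every point lies at or below -0.32, and 22 of the 31 alternatives are open. Settings that cannot change the difference repeat the reported -0.40.

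Max, the obligate partner of Myc, was at 10.32, 10.24, 10.27 and 10.44 in iTreg, 10.35, 10.44, 10.66 and 10.68 in e_iTreg and 10.53, 10.52, 10.68 and 10.46 in eTreg. The iTreg arrays lay below the eTreg arrays without overlap and overlapped with those of e_iTreg. The difference was -0.23 ± 0.10 against eTreg (adjusted p = 0.190) and -0.22 ± 0.10 against e_iTreg (adjusted p = 0.188), so neither passed. Myc and Max were the 2 of 11 member probe sets whose iTreg arrays all lay below the eTreg arrays, as did 7.82% of all rows, and 0 of 11 lay above without overlap (6.9% of rows). Against e_iTreg the iTreg arrays of Myc alone lay below without overlap (9.0% of rows), and 0 of 11 lay above (7.57% of rows).

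Slc7a5, the transporting light chain of CD98, was at 10.05, 9.85, 10.35 and 9.83 in iTreg, 10.17, 9.96, 9.99 and 10.39 in e_iTreg and 10.19, 9.99, 10.14 and 9.27 in eTreg. The 3 groups overlapped. Its difference was 0.12 ± 0.18 against eTreg (95% interval -0.27 to 0.51, adjusted p = 0.802) and -0.11 ± 0.18 against e_iTreg (-0.50 to 0.28, adjusted p = 0.743). Slc3a2, the heavy chain that carries Slc7a5 to the membrane, was at 10.58, 10.81, 11.02 and 10.80 in iTreg, 10.97, 11.20, 11.28 and 10.97 in e_iTreg and 11.09, 11.01, 11.17 and 10.11 in eTreg. The eTreg array of replicate 4 stood well below the other 3 of its group. Slc3a2 differed by -0.04 ± 0.19 against eTreg (adjusted p = 0.949) and by -0.30 ± 0.19 against e_iTreg (adjusted p = 0.334). Without eTreg replicate 4 the difference from eTreg was -0.29 for Slc3a2 (adjusted p = 0.211) and -0.09 for Slc7a5 (adjusted p = 0.843), and neither passed.

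Slc1a5, a sodium-dependent exchanger of glutamine and other neutral amino acids, had 2 probe sets. Probe set 17474143 was at 11.08, 10.82, 11.21 and 11.02 in iTreg, 11.24, 11.31, 11.29 and 11.13 in e_iTreg and 11.17, 11.20, 11.05 and 11.11 in eTreg. Replicate 2 of iTreg was the lowest of the 12 arrays, and the groups overlapped. It differed by -0.10 ± 0.10 against eTreg (adjusted p = 0.654) and by -0.21 ± 0.10 against e_iTreg (adjusted p = 0.188). Probe set 17486956 ranged from 7.52 to 7.75 in iTreg, 7.43 to 7.81 in e_iTreg and 7.53 to 7.70 in eTreg, and its differences were 0.03 ± 0.10 against eTreg and -0.04 ± 0.10 against e_iTreg. Neither probe set passed in any comparison.

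Slc38a1 and Slc38a2 are sodium-coupled carriers of glutamine, alanine and other small neutral amino acids, and Slc38a2 is known to be induced when amino acids run short. Slc38a2 was at 10.65, 10.22, 10.09 and 9.96 in iTreg, 10.74, 10.43, 10.44 and 10.83 in e_iTreg and 10.21, 10.45, 10.81 and 10.16 in eTreg. In 3 of the 4 iTreg arrays it was below every e_iTreg array, and replicate 1 was inside their range. The difference was -0.38 ± 0.17 against e_iTreg (95% interval -0.74 to -0.02, adjusted p = 0.168) and -0.18 ± 0.17 against eTreg (adjusted p = 0.642). Slc38a1 ranged from 10.10 to 10.65 in iTreg, 10.12 to 10.36 in e_iTreg and 9.98 to 10.30 in eTreg, with differences of 0.14 ± 0.13 against e_iTreg and 0.18 ± 0.13 against eTreg (adjusted p = 0.528 and 0.496). In sign the pair differed, and neither gene passed.

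The cationic carriers and the iron receptor showed overlapping groups. Slc7a1, the arginine and lysine carrier CAT-1, ranged from 9.14 to 9.75 in iTreg, 9.15 to 9.64 in e_iTreg and 8.96 to 9.72 in eTreg, with differences of 0.07 ± 0.16 against e_iTreg and 0.06 ± 0.16 against eTreg. Slc7a6, another light chain that pairs with Slc3a2 and exchanges cationic for neutral amino acids, ranged from 8.58 to 8.96 in iTreg, 8.47 to 8.97 in e_iTreg and 8.64 to 8.80 in eTreg. Its differences were 0.09 ± 0.12 against e_iTreg and 0.01 ± 0.12 against eTreg. Tfrc, whose transcript is also stabilised by iron-regulatory proteins when iron is low, ranged from 7.55 to 7.97 in iTreg, 7.58 to 7.88 in e_iTreg and 7.69 to 7.86 in eTreg. It differed by 0.04 ± 0.11 against e_iTreg and 0.03 ± 0.11 against eTreg, with a 95% interval of -0.20 to 0.25 in the comparison with eTreg. The adjusted p-values of these 3 genes were all at 0.683 or above in both comparisons.

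Over the 11 probe sets the median difference was 0.01 for iTreg against eTreg and -0.11 for iTreg against e_iTreg, beside -0.01 and -0.07 over all rows. With no adjustment, 2 of 11 had p under 0.05 against eTreg (21.7% of rows) and 4 of 11 against e_iTreg (26.3% of rows). A p that misses the threshold does not show equal levels. The 95% intervals of the members allowed folds between 0.634 and 1.43 against eTreg and between 0.600 and 1.34 against e_iTreg.

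**Figure D3:**
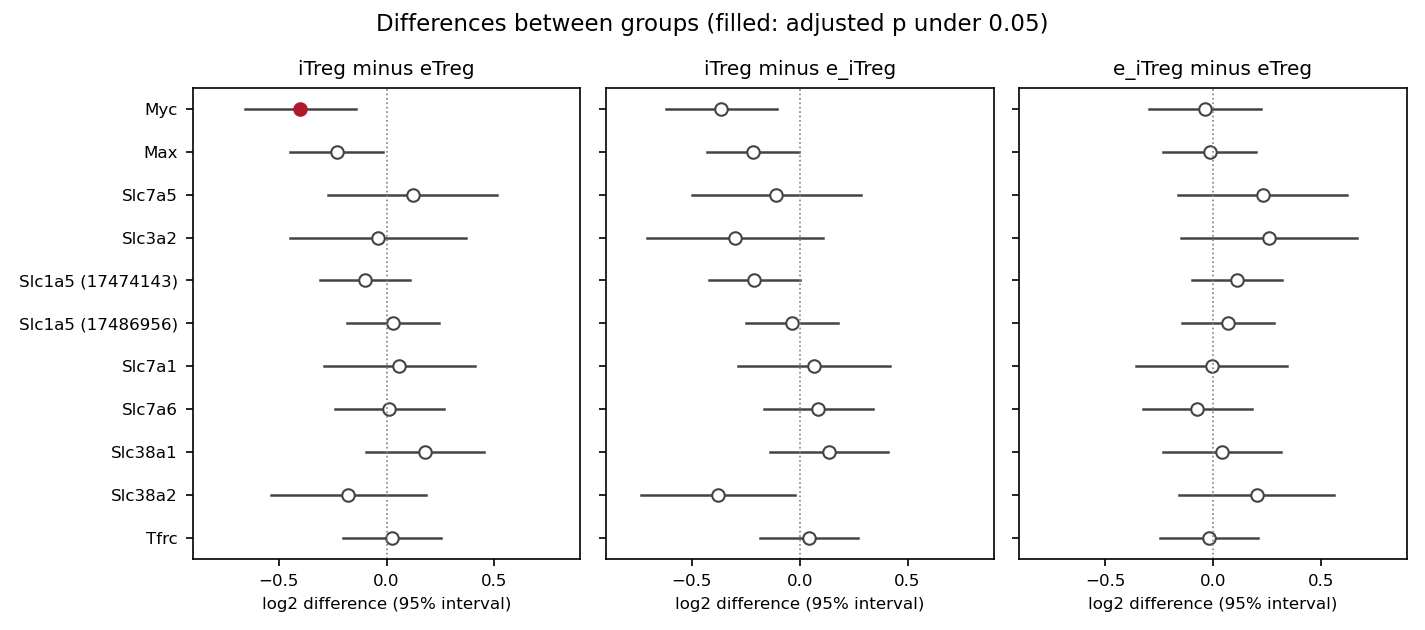
Log2 differences with 95% intervals (x axis) of the 11 probe sets in the 3 comparisons, 1 panel each, with filled points for an adjusted p under 0.05. Myc in iTreg minus eTreg (-0.40) is the filled point, and the intervals of the e_iTreg minus eTreg panel all include 0.

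The comparison of e_iTreg with eTreg asked what IVIg changed without depletion. In it no member passed limma's test (0.0% of rows did, and 7.01% had an unadjusted p under 0.05, with 0 of the 11 among them). The differences ran from -0.07 for Slc7a6 to 0.26 for Slc3a2, with Slc7a5 at 0.23 and Slc38a2 at 0.20, and the smallest adjusted p was 0.744. Without eTreg replicate 4 the differences of Slc3a2 and Slc7a5 were 0.01 and 0.02. Intervals allowed folds between 0.780 and 1.59. No member's groups were without overlap, where 2.63% of rows were higher in that way and 1.66% lower. The median over members was 0.04, beside 0.03 over all rows.

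In the Max network list, transcripts moved in both directions. The list holds Max partners and also genes of Myc binding and regulation, so its shares are not those of Max partners alone. Of 21 genes measured, 3 rose and 3 fell in iTreg against eTreg (14.3% each way, beside 5.36% and 4.63% of all rows), with a median of -0.01. Mxd4, a Max partner that represses E-box genes, was at 9.19, 9.40, 9.44 and 9.17 in iTreg, 9.83, 9.82, 9.41 and 9.99 in e_iTreg and 9.98, 9.996, 9.95 and 10.10 in eTreg. All 4 iTreg arrays lay below the eTreg arrays, and e_iTreg replicate 3 lay among the iTreg arrays. Mxd4 fell by 0.71 ± 0.12 (adjusted p = 0.00233). Mga, a Max partner with a T-box domain, fell by 0.57 ± 0.13, and Mycbp2, a ubiquitin ligase that binds Myc, fell by 0.42 ± 0.09. Mxd3, a Max partner known from proliferating cells, rose by 0.70 ± 0.15 (adjusted p = 0.00856), and Mycbp, a small Myc-binding protein, rose by 0.62 ± 0.11. Aurka, a mitotic kinase that binds N-Myc and is also in the cell cycle list, rose by 1.45 ± 0.32. Mxd1 (-0.34 ± 0.14), Mxi1 (-0.33 ± 0.13), Mnt (-0.33 ± 0.19) and Mycn (-0.01 ± 0.12) did not pass. Mycn was below the array medians, at 5.77 in iTreg and 5.78 in eTreg. Against e_iTreg 4 rose and 4 fell (19.0% each way, beside 6.49% and 4.75% of rows), among them Mlx (0.56 ± 0.15) and Mlxip (-0.43 ± 0.13), partners of each other in glucose sensing. The comparisons with eTreg and with e_iTreg share the iTreg arrays, so calls in one are no independent support for calls in the other.

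Among 43 measured genes that are known as Myc targets, 4 rose and 0 fell in iTreg against eTreg (9.30% and 0% of the list, beside 5.36% and 4.63% of all rows), with a median of 0.12. Ran, the GTPase of nuclear transport, was at 9.36 ± 0.21 in iTreg and 8.68 ± 0.10 in eTreg (SD, n = 4 each) and rose by 0.68 ± 0.11 (adjusted p = 0.002). Mthfd2, a mitochondrial folate enzyme, rose by 0.55 ± 0.13, Pa2g4, a nucleolar growth regulator, by 0.45 ± 0.12 and Nme1, a nucleoside diphosphate kinase, by 0.38 ± 0.11. Ncl, the nucleolar protein nucleolin, differed by 0.00 ± 0.10, and Odc1, the first enzyme of polyamine synthesis, by -0.12 ± 0.20. Against e_iTreg 7 rose and 0 fell (16.3% and 0%, beside 6.49% and 4.75% of all rows), with a median of 0.23. Among the 7 were Ran (0.87 ± 0.11), Wdr12 and Nhp2 of ribosome biogenesis (0.50 ± 0.11 and 0.44 ± 0.12) and C1qbp of mitochondria (0.37 ± 0.11). Of the 43 differences from eTreg 31 were positive and 39 did not pass, and without the 3 arrays of least B cell marker signal (e_iTreg replicate 4 and eTreg replicates 3 and 4) 0 passed as higher.

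Cell cycle transcripts were higher in iTreg. Of 36 measured, 35 rose against eTreg and 35 against e_iTreg, with median differences of 1.76 and 1.57. These are 97.2% of the list each time, beside 5.36% and 6.49% of all rows. The mean of the list was 9.13 to 9.87 in iTreg arrays, 7.32 to 8.73 in e_iTreg arrays and 7.25 to 8.67 in eTreg arrays, so the iTreg arrays did not overlap with the others. The part of this shift in the Myc target and synthetase values below was not tested.

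**Figure D4:**
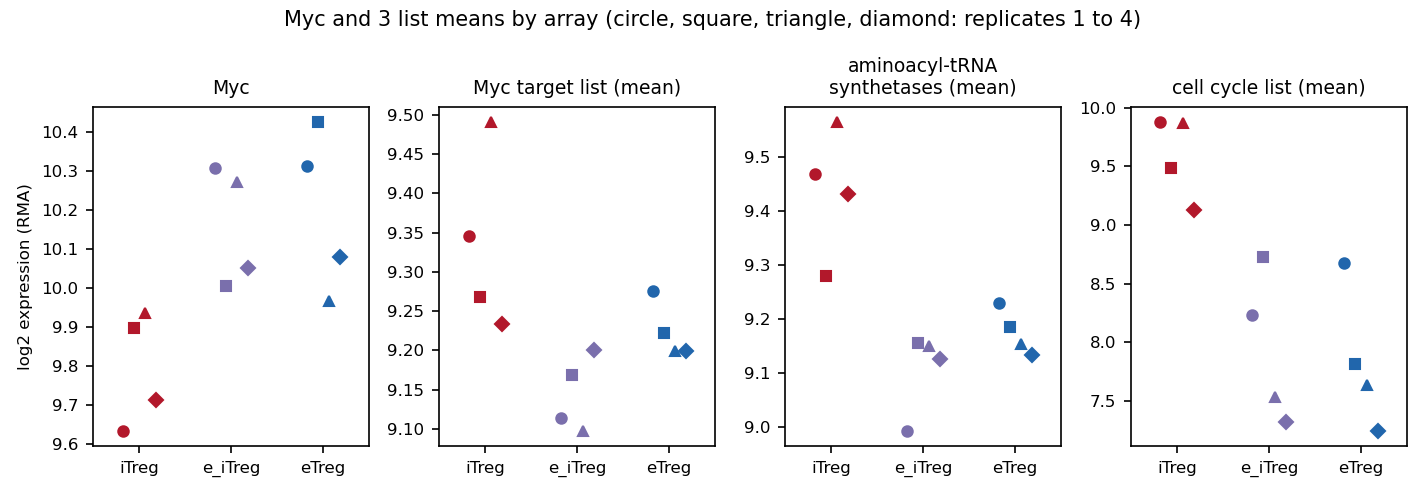
Log2 level (RMA) of Myc and the mean of 3 gene lists in each array, by group, with a symbol shape per replicate. The iTreg arrays are lowest for Myc (9.63 to 9.94) and highest for the cell cycle list (9.13 to 9.87) and for the aminoacyl-tRNA synthetases (9.28 to 9.56).

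Aminoacyl-tRNA synthetases, the cytosolic enzymes that charge tRNA with imported or synthesised amino acids, moved upward where they passed. Of 18 measured, 5 rose and 0 fell against eTreg (median 0.26), and 7 rose and 0 fell against e_iTreg (median 0.32). The share of all rows that rose was 5.36% and 6.49%. Gars, for glycine, was at 10.54 ± 0.16 in iTreg, 9.85 ± 0.15 in e_iTreg and 9.99 ± 0.10 in eTreg, and rose by 0.55 ± 0.11 against eTreg (adjusted p = 0.00521). Wars, for tryptophan and also interferon-inducible, rose by 0.70 ± 0.14, Hars, for histidine, by 0.44 ± 0.09, Nars, for asparagine, by 0.42 ± 0.12 and Sars, for serine, by 0.33 ± 0.09. Without eTreg replicate 4, or without iTreg replicate 4, 3 synthetases passed.

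Other plasma membrane amino acid transporters mostly did not pass. Of 45 measured, 1 rose and 2 fell against eTreg, and the median was -0.03. These are 2.22% and 4.44% of the list, beside 5.36% and 4.63% of all rows. Slc43a3, listed by its family but known as a purine nucleobase transporter, was at 9.85, 9.74, 9.94 and 9.25 in iTreg, 8.48, 8.75, 8.25 and 7.97 in e_iTreg and 9.04, 8.46, 8.21 and 7.79 in eTreg. Every iTreg array lay above every other array, and the gene rose by 1.32 ± 0.23 (adjusted p = 0.00286). Slc3a1, the heavy chain of the cystine carrier, fell by 0.64 ± 0.16, and Slc38a9, known as an arginine sensor of the lysosome rather than a surface carrier, fell by 0.33 ± 0.10. Slc43a1 (0.01 ± 0.15), Slc1a4 (-0.12 ± 0.12) and Slc7a11 (0.25 ± 0.10), carriers of large neutral, small neutral and cystine with glutamate, did not pass. Slc7a11 was below the array medians, at 4.39 in iTreg and 4.13 in eTreg. Against e_iTreg the calls were Slc43a3 (1.33 ± 0.23), Slc3a1 (-0.70 ± 0.16) and the glutamate carrier Slc1a6 (-0.43 ± 0.11). These are 2.22% higher and 4.44% lower, beside 6.49% and 4.75% of all rows.

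Genes by which amino acids are sensed at mTORC1 went both ways. Of 41 measured, 2 rose and 6 fell against eTreg (4.88% and 14.6%, beside 5.36% and 4.63% of all rows), with a median of 0.02. Sesn1, a sestrin, which restrains mTORC1, fell by 0.87 ± 0.16, and its relative Sesn3 fell by 0.63 ± 0.13. Rragd, a Rag GTPase that recruits mTORC1 to lysosomes, was at 6.78 ± 0.18 in iTreg and 7.61 ± 0.26 in eTreg and fell by 0.83 ± 0.14 (adjusted p = 0.0024). Rptor, the mTORC1 scaffold, fell by 0.49 ± 0.10, Castor2, a relative of the arginine sensor, by 0.51 ± 0.11 and Tsc1, a subunit of the inhibitory TSC complex, by 0.37 ± 0.11. Lamtor3, of the Ragulator anchor, rose by 0.87 ± 0.17, and Fnip2, a folliculin partner, rose by 0.48 ± 0.14. Fnip2 was near the array medians in iTreg, at 6.31, and below them in eTreg, at 5.83. Without iTreg replicate 4, 1 gene of the list rose, and without the 3 arrays of least B cell marker signal 0 rose and 1 fell. Against e_iTreg 4 rose (Lamtor3, Nprl2, Sec13 and Mlst8) and 6 fell (Sesn1, Sesn3, Rragd, Rptor, Castor2 and Tsc1). These are 9.76% and 14.6% of the list, beside 6.49% and 4.75% of all rows.

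**Figure D5:**
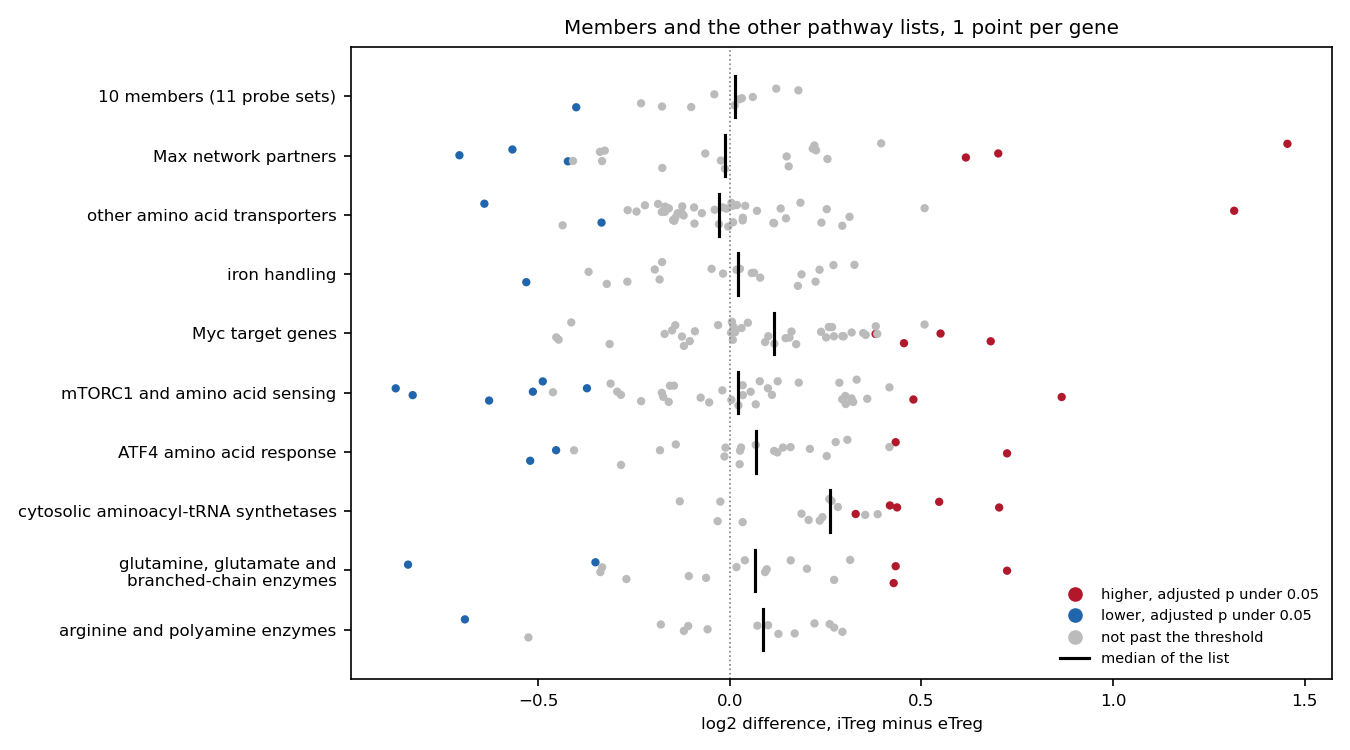
Log2 difference, iTreg minus eTreg (x axis), for the 11 member probe sets and the genes of 9 pathway lists named on the y axis (cell cycle and marker lists are not drawn), with 1 point per gene, red and blue for adjusted p under 0.05 higher and lower, grey for the rest and a bar at each list's median. Among the lists drawn, the synthetases have the highest median (0.26), and the members hold 1 coloured point, Myc at -0.40.

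In the ATF4 amino acid response list (23 measured), 2 rose and 2 fell against eTreg (8.70% each way, beside 5.36% and 4.63% of all rows), with a median of 0.07. Psat1, of serine synthesis, rose by 0.72 ± 0.19 and Asns, asparagine synthetase, by 0.43 ± 0.12. Ppp1r15a, a phosphatase subunit of the stress response, fell by 0.52 ± 0.11, and Eif2ak4, the kinase GCN2 that senses uncharged tRNA, fell by 0.45 ± 0.13. Atf4 itself was at 11.93 ± 0.15 in iTreg, 12.27 ± 0.11 in e_iTreg and 12.22 ± 0.13 in eTreg. Its difference was -0.28 ± 0.10 against eTreg (adjusted p = 0.109) and it fell by 0.34 ± 0.10 against e_iTreg (adjusted p = 0.0473). Psph, of serine synthesis, rose by 0.48 ± 0.11 against e_iTreg. That made 3 higher and 3 lower there (13.0% each way, beside 6.49% and 4.75% of all rows).

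The enzymes of glutamine, glutamate and branched-chain amino acids (18 measured) had 3 higher and 2 lower against eTreg (16.7% and 11.1%, beside 5.36% and 4.63% of all rows). Psat1 and Asns are in this list as well, and the third was Got2, the mitochondrial aspartate aminotransferase, which rose by 0.43 ± 0.11. Bckdhb, of the complex that oxidises branched-chain keto acids, fell by 0.84 ± 0.15, and Gclc, the catalytic subunit of glutathione synthesis, fell by 0.35 ± 0.09. Against e_iTreg 4 rose and 3 fell (22.2% and 16.7%, beside 6.49% and 4.75% of all rows). Gclm (0.37 ± 0.10) and the glutamine synthetase gene Glul (-0.49 ± 0.11) were added there. Among 14 arginine and polyamine enzymes, Smox, spermine oxidase, fell by 0.69 ± 0.11 against eTreg (adjusted p = 0.00145) and by 0.77 ± 0.11 against e_iTreg. Oaz1, the inhibitor of ornithine decarboxylase, rose by 0.38 ± 0.11 against e_iTreg. These calls are 7.14% of the list lower in each comparison and 7.14% higher against e_iTreg. Of all rows, 4.63% were lower against eTreg, and 4.75% were lower and 6.49% higher against e_iTreg.

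Iron handling genes (20 measured) had 0 higher and 1 lower against eTreg (0% and 5%, beside 5.36% and 4.63% of all rows). The 1 lower was Slc25a37, the mitochondrial iron importer, which fell by 0.53 ± 0.14. Fth1, the ferritin heavy chain, differed by -0.18 ± 0.09, Slc11a2, an endosomal iron carrier, by 0.33 ± 0.10 (adjusted p = 0.064) and the iron exporter Slc40a1 by 0.27 ± 0.64. Slc40a1 had an SD of 1.85 in iTreg and 0.68 in eTreg. It was at 6.38, 5.23, 6.49 and 9.56 in iTreg replicates 1 to 4, and replicate 4 was also the highest in plasma cell markers. Against e_iTreg 0 were higher and 1 lower (0% and 5%, beside 6.49% and 4.75% of all rows). That gene was Tfr2, the second transferrin receptor, which fell by 0.37 ± 0.10. Tfr2 was below the array medians, at 5.48 in iTreg and 5.85 in e_iTreg. No gene of the pathway lists or of the cell cycle list passed in e_iTreg minus eTreg. As 0.0% of all rows passed there, no list could hold a call.

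Markers of other cells moved with the iTreg group in part. Prdm1 (1.04 ± 0.19), which effector Treg also express, and Txndc5 (0.69 ± 0.20) rose among 10 plasma cell markers. Itgam (1.68 ± 0.29) and Cst3 (0.57 ± 0.13) rose among 13 myeloid markers, while 0 of 14 B cell and 0 of 8 neutrophil markers passed against eTreg. The plasma cell and myeloid calls are 20% and 15.4% of their lists, beside 5.36% of all rows. Differences were positive for 10 of 10 plasma cell, 8 of 8 neutrophil, 11 of 13 myeloid and 11 of 14 B cell markers. Jchain (2.62 ± 0.81, adjusted p = 0.0551) and S100a8 (1.52 ± 0.51, adjusted p = 0.0754) did not pass. Jchain was at 11.69 in iTreg replicate 4. Gzmk (0.58 ± 0.10) rose among 10 CD8 T and NK cell markers (10%, beside 5.36% of all rows). Gata1 fell by 0.88 ± 0.17 among the erythroid markers (12.5%, beside 4.63% of all rows). Against e_iTreg, Prdm1 (10% of its list), Itgam and Cst3 (15.4%) and Gzmk (10%) rose, beside 6.49% of all rows, and Txndc5 did not pass. Gata1 (12.5%) and the myeloid marker Siglech (7.69%, by -0.45) fell there, beside 4.75% of all rows. Thy1, of the T cell and Treg identity list, rose there by 0.70 (8.33%). With the myeloid marker mean as a covariate the Myc difference from eTreg was -0.41 with adjusted p = 0.136 (939 of all rows passed). With the B cell marker mean it was -0.44 with adjusted p = 0.0315 (2050 of all rows passed). Their part in the list counts was not tested, but with the 3 arrays of least B cell marker signal left out (e_iTreg replicate 4 and eTreg replicates 3 and 4) the Max network list had 0 higher and 1 lower, the Myc target list 0 higher, the synthetase list 0 higher and the mTORC1 list 0 higher and 1 lower. In that fit 400 of all rows passed, against 2349 with all arrays.

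The genes whose levels ran most like those of 3 members were taken over 13993 genes of mean log2 level 6 or more, as descriptions over 12 arrays that share 3 groups. For Myc they were Scml4 (r = 0.925), Fbxw4 (0.919) and Gabbr1 (0.914), and over deviations from the group means r was 0.852, 0.846 and 0.827. For Slc7a5 they were Bpnt2 (0.913), Shc1 (0.883) and Plekha2 (0.874), with its heavy chain Slc3a2 at rank 46 (0.707). For Tfrc they were Phf8 (0.904), Ensa (0.896) and Rab3gap2 (0.867). Among the 45 pairs of members, the order of r over deviations from group means depended on eTreg replicate 4. With it, r was 0.827 for Slc7a5 and Slc7a1, 0.675 for Slc7a1 and Slc7a6 and 0.484 for Slc7a5 and Slc7a6. Without it, r was 0.758, 0.854 and 0.864 for the same pairs in that order. For Slc7a5 and Slc3a2 r was 0.700, and it was -0.01 without that array. At the low end, Myc and Tfrc had -0.41 with the array and -0.47 without it, Myc and Max had -0.38 and -0.48, and Slc3a2 and Slc38a2 had 0.07 and -0.58.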

How the data were processed

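Per the labels' protocols, 2 ng of total RNA per sample was amplified in 2 rounds and labelled for Affymetrix arrays. The deposited values were log2 expression levels per probe set, which the authors made with oligo and RMA, per the submitters' processing notes. Tool versions and an array build were not given in these sources. Of 41345 rows, 23521 had exactly 1 symbol, 1814 several and 16010 none, and 23328 of the 23521 matched the RefSeq gene table, used for names.

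One linear model over 12 arrays was fitted (R 4.3.3, limma 3.58.1, functions lmFit and eBayes; 9 residual and 5.78 prior degrees of freedom), two-sided, with Benjamini-Hochberg adjustment over 23521 rows and a threshold of 0.05. The series design calls replicates biological. Precision is limited by how many arrays there are. The fit was tested on simulated data. Lists used 1 probe set per gene, the one with the highest mean over all arrays.

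Members and lists were chosen with earlier results of these data known. Named genes are the members, up to 4 per list with the smallest p against eTreg, up to 2 more against e_iTreg, a set always named, and the 3 most like Myc, Slc7a5 and Tfrc. Mlx, Mlxip, C1qbp, Castor2, Fnip2, Tsc1, Sec13, Mlst8 and Gclm were chosen after their values were seen. Alternatives were other normalizations, filters, error models, covariates, a replicate block and leaving out arrays. Those on list counts were chosen after seeing the data. E-boxes were searched as letters.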

Additional observations from a re-analysis of the deposited data

Results flagged for a closer look

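The fourth eTreg array was far from its group for Slc3a2, at 10.11, while the other eTreg arrays were at 11.09, 11.01 and 11.17. The gap to the nearest array was 0.8501 of the group's whole range, above Dixon's 95% critical value for 4 samples. Of 33 groups tested (11 probe sets in 3 groups), 1 stood out in this way, and chance gives about 1 in 20. Slc7a5 was also lowest in that array, at 9.27.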

How the results depend on the processing

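The member count in iTreg minus eTreg was 1, and it was 0 in 22 of 31 settings, each time because Myc missed the threshold; the cause was not tested. Its adjusted p was 0.0577 with quantile normalization, 0.0659 with median centring, 0.0916 over all rows, 0.0705 with the compared groups alone, 0.136 and 0.227 with the myeloid and plasma cell marker means, 0.535 with the cell cycle mean, 0.0629 with Xist level as a covariate and 0.0556 without the 3 arrays of least B cell marker signal. A fold of at least 1.5 could not be reached, as the Myc decrease in the same fit was 1.32-fold. Leaving out 1 array gave a count of 0 to 1 (adjusted p 0.0364 to 0.160). In iTreg minus e_iTreg the count was 0, and 1 (Myc) above the median level, above log2 6 and at adjusted p under 0.1. In e_iTreg minus eTreg it was 0 in each setting. Of 1020 member differences under other settings, 965 stayed, 30 moved by more than their error, 22 lost a call and 3 gained one. Part of the 965 was fixed in advance. Row filters, trend and robust estimates of spread, the replicate block and the compared groups alone cannot change a difference. Nor can another threshold or leaving out an array of the group not compared. Where no call was made, only the size of the difference was judged. Signs turned in 57 of the 1020, none of them Myc in iTreg minus eTreg and none a called difference.

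With the replicate number as a replicate block the Myc adjusted p was 0.0748 and the count 0. Deviations of same-numbered arrays correlated at -0.04 to 0.12, -0.15 to 0.04 and 0.07 to 0.24 in the 3 comparisons. In these, 1, 0 and 2 of 4 correlated best with their own number. Low correlations over all rows do not show that the arrays were unpaired or shared no batch. The cell cycle list mean was lowest in replicate 4 of each group (9.13 in iTreg, 7.32 in e_iTreg and 7.25 in eTreg).

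List counts against eTreg were rerun without 1 array. Without eTreg replicate 4 or iTreg replicate 4, the synthetases higher were 3 each, the Myc targets higher 3, and the mTORC1 genes higher 2 and 1. Without the 3 arrays of least B cell marker signal, the counts higher were 0 for the Max network, Myc targets, mTORC1 genes and synthetases, and those lower were 1 for the Max network and 1 for mTORC1, with fewer arrays and 400 rows called. The 4 arrays per group limit the precision of each difference.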
